A study of Mus musculus with 10 samples.

Results

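The genes described here are 32 mouse genes of the endoplasmic reticulum (ER) quality control machinery and of the unfolded protein response. They were chosen by function: every probe set of the deposited value table annotated to one of the member symbols, or to a former symbol, was taken in all 10 arrays. This gave 81 probe sets, between 1 and 6 for each gene, for 32 of the 18193 genes with a probe set. Of the 32 members, 31 were among the 10916 genes bright enough to be tested. The exception was Derl3, a derlin of the degradation pathway, which lay at the detection floor in all 10 arrays.

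Secreted and membrane proteins fold in the ER with the help of chaperones, lectins and disulfide isomerases, and proteins that fail to fold are moved back to the cytosol and degraded. When unfolded protein accumulates, the sensors encoded by Ern1 (IRE1), Eif2ak3 (PERK) and Atf6 raise the expression of these helpers, partly through the transcription factor XBP1 and partly, on the PERK side, through ATF4. Fat cells secrete hormones such as adiponectin and leptin through this pathway, and fatty acids are among the stimuli known to engage it in cultured cells.

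The arrays were Affymetrix expression arrays of total RNA from 3T3-L1 adipocytes, a clonal mouse fibroblast line that can be turned into fat-storing cells. Cultures received c9t11 CLA, a conjugated isomer of linoleic acid, or LA as the control; LA usually abbreviates linoleic acid, but the labels give only the letters and no dose. The groups were LA at 8 h (4 arrays), LA at 12 h (4 arrays), c9t11 CLA at 8 h (1 array) and c9t11 CLA at 12 h (1 array). The LA arrays of each time carried biological replicate numbers 1 to 4, and both CLA arrays carried number 1, so no CLA value has a replicate at its own time.

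The labelled cell type was checked against marker genes. Of 8 adipocyte markers tested, 7 were above the floor in every array, with Adipoq between 12.68 and 13.14 and Fabp4 between 12.90 and 13.19 on the log2 scale; Lep, the leptin gene, was above the floor in 1 of 10 arrays. Of the markers of other cells, endothelial Pecam1 and Kdr, the leukocyte gene Ptprc, macrophage Itgam and plasma cell Tnfrsf17 were at the floor in all 10 arrays, while plasma cell Sdc1 and Ighm and macrophage Adgre1 and Csf1r were above it in all 10. Macrophage Cd68 and endothelial Cdh5 were above it in 3 arrays each, all numbered 1. The arrays stood apart by replicate number. The upper quartile of the deposited intensities was 26.4 to 39.5 in the 4 arrays numbered 1 and 54.4 to 76.8 in the 6 others. The summed intensity of 6 preadipocyte and fibroblast markers was 1482 to 3870 in the arrays numbered 1 and 4351 to 12174 in the others, with Cd34 at the floor throughout. The LA 12 h array of number 4 had a 3'/5' ratio of 5.67 for Actb and 1.42 for Gapdh, against 1.45 to 2.60 and 0.81 to 0.92 in the other 9 arrays.

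All values below are log2 intensities after quantile normalization, with the brightest probe set standing for each gene; the floor is 3.84. Levels of different genes are not compared, since each probe set has its own response. A difference is a difference of log2 values, so 1 is a doubling, and is given with its standard error (SE). It was called at an adjusted p under 0.05 (limma, Benjamini-Hochberg over the 10916 genes).

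Several members are textbook targets of ATF6 and XBP1, which act through a short promoter element. RefSeq promoters (GRCm38.p6, 250 bases before to 50 after the start) were found for 27 of the 32 members. The ER stress response element (ERSE), searched on both strands as CCAAT and CCACG with any 9 bases between them, was present in 9 of these 27 promoters (33.3%) and in 37 of 27025 genes with a promoter (0.137%), or 14 of the 8902 that were also tested (0.157%). The 9 were Hspa5, Hsp90b1, Dnajc3, Creld2, Calr, Canx, Pdia6, Syvn1 and Derl3; Hsp90b1 held a pair of them. ERSE-II, searched on both strands as ATTGG and CCACG with any 1 base between them, was present in Herpud1 and, after the start, in Dnajb11, against 12 of 27025 genes (0.0444%). The letters TGACGTGG at the core of the unfolded protein response element were present in Txndc5 alone among members and in 193 genes (0.714%). A match is a run of letters in this window, not a shown binding site, and these genes were listed for a function in which the element has long been known. In LA number 1, described further on, Hspa5, Hsp90b1 and Canx were called lower and Creld2, Syvn1 and Herpud1 higher. The upstream stretches of these 6 members are shown because the genes were called there and hold an ERSE, or an ERSE-II in Herpud1, before the start. Each is written in the direction of its gene with 20 bases on either side of the match, and the capitals mark the fixed letters of the motif, on one strand or the other.
Hspa5 (ERSE, plus strand, chr2:34772005-34772063): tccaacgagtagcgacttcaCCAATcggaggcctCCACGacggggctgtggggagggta
Hsp90b1 (ERSE, distal, minus strand, chr10:86705618-86705676): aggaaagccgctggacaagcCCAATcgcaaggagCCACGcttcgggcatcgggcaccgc
Hsp90b1 (ERSE, proximal, minus strand, chr10:86705513-86705571): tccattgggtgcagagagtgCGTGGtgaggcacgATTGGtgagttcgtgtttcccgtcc
Canx (ERSE, minus strand, chr11:50325780-50325838): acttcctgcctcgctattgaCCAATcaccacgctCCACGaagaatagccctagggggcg
Creld2 (ERSE, plus strand, chr15:88819500-88819558): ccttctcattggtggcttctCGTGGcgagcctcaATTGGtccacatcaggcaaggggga
Syvn1 (ERSE, plus strand, chr19:6046512-6046570): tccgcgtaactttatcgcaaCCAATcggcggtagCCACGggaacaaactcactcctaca
Herpud1 (ERSE-II, plus strand, chr8:94386357-94386407): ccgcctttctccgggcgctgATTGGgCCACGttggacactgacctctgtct

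Among the chaperones proper, 2 were low and 1 was high in the arrays numbered 1, whichever fatty acid they had received. Hspa5 (BiP), the ER member of the HSP70 family and the partner of all 3 sensors, read 10.50, 11.45, 11.22 and 10.63 in LA 8 h numbers 1 to 4, 10.64, 11.36, 11.29 and 11.44 in LA 12 h numbers 1 to 4, and 10.66 and 10.65 in CLA 8 h and CLA 12 h. Both LA arrays of number 1 and both CLA arrays were low, and so was LA 8 h number 4, so the ranges overlapped. Hsp90b1 (GRP94), the ER member of the HSP90 family, read 8.32, 10.73, 10.88 and 10.07 in LA 8 h, 8.84, 10.87, 10.74 and 10.91 in LA 12 h, 7.73 in CLA 8 h and 9.03 in CLA 12 h. All 4 arrays numbered 1 lay below all 6 others. Hyou1 (GRP170), which exchanges the nucleotide of BiP, took the opposite course, at 8.89 and 8.86 in the LA arrays of number 1, 8.99 and 8.48 in the CLA arrays and 6.48 to 8.11 in the other 6. Its number 1 arrays lay above all others.

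The co-chaperones and stress-induced partners varied most in Sdf2l1, a luminal protein that works with the J-domain protein encoded by Dnajb11. Sdf2l1 read 7.80, 6.03, 5.33 and 4.67 in LA 8 h, 7.65, 5.32, 5.65 and 4.72 in LA 12 h, 7.01 in CLA 8 h and 6.01 in CLA 12 h. The LA arrays of number 1 were highest and those of number 4 lowest without overlap, and the CLA 12 h array fell among the LA arrays of number 2. Creld2, an ER-resident disulfide-handling protein induced by ER stress, read 7.93, 7.53, 7.52 and 6.49 in LA 8 h, 8.42, 7.30, 7.08 and 7.06 in LA 12 h, 8.10 in CLA 8 h and 7.05 in CLA 12 h. Its CLA array was above every LA array at 8 h and below every LA array at 12 h, there only barely below numbers 3 and 4. Manf, a small secreted protein released under ER stress, read 9.83, 9.92, 9.49 and 8.98 in LA 8 h, 10.10, 9.60, 9.36 and 9.45 in LA 12 h, 10.15 in CLA 8 h and 9.38 in CLA 12 h. Its LA values spanned 1.12, and no replicate number stood clear of the rest. Dnajb9 (ERdj4), a J-domain partner of BiP, read 8.97, 8.36, 9.82 and 10.55 in LA 8 h, 9.21, 8.77, 9.85 and 9.46 in LA 12 h, 9.06 in CLA 8 h and 9.14 in CLA 12 h. Only the arrays of number 2 lay apart from the rest, at the low end. Dnajb11 and Dnajc3 spanned 1.30 and 0.89 over the LA arrays.

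The lectin chaperones, which hold glycoproteins until they fold, parted from each other. Canx, the membrane-bound calnexin, read 8.65, 10.52, 10.73 and 10.34 in LA 8 h, 8.89, 10.54, 10.30 and 10.69 in LA 12 h, 8.43 in CLA 8 h and 9.29 in CLA 12 h. Every array numbered 1 was below every other array. Calr, the soluble calreticulin, read 11.74, 11.44, 11.74 and 10.76 in LA 8 h, 11.96, 11.58, 11.70 and 11.50 in LA 12 h, 11.90 in CLA 8 h and 11.73 in CLA 12 h. Apart from the low LA 8 h array of number 4, these values lay within a narrow band and overlapped between all numbers.

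Of the disulfide isomerases, Pdia3 (ERp57), the partner of the lectin chaperones, read 9.41, 10.93, 10.39 and 9.79 in LA 8 h, 9.47, 10.67, 10.64 and 10.29 in LA 12 h, 9.10 in CLA 8 h and 9.67 in CLA 12 h. It was low in number 1, like Canx. Pdia4 (ERp72) read 9.51, 9.22, 9.12 and 8.79 in LA 8 h, 9.25, 8.37, 8.94 and 8.14 in LA 12 h, 8.66 in CLA 8 h and 8.47 in CLA 12 h. Its LA arrays of number 1 were the highest of all, and both CLA arrays lay below them. The CLA 8 h array was below every LA 8 h array, and the CLA 12 h array lay among numbers 2 to 4 of LA 12 h. Txndc5 (ERp46) read 9.97, 9.98, 10.18 and 8.09 in LA 8 h, 10.09, 9.46, 10.51 and 8.32 in LA 12 h, 9.52 in CLA 8 h and 10.13 in CLA 12 h. Both arrays of number 4 were more than a doubling below the rest. P4hb, the founding protein disulfide isomerase, was also lowest in number 4, at 10.22 and 10.92 against 11.35 to 11.70 in the other LA arrays. Pdia6, a further isomerase, spanned 0.84 over the LA arrays.

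Among the sensors, Ern1, which encodes the kinase and nuclease IRE1, read 6.01, 5.09, 4.79 and 5.64 in LA 8 h, 6.56, 5.77, 5.04 and 5.24 in LA 12 h, 6.92 in CLA 8 h and 6.45 in CLA 12 h. All arrays numbered 1 were above all others. Eif2ak3 (PERK) read 6.80, 7.16, 6.25 and 6.61 in LA 8 h, 6.82, 6.86, 6.15 and 6.42 in LA 12 h, 6.82 in CLA 8 h and 6.44 in CLA 12 h. Number 2 was at the top and number 3 at the bottom, with small gaps. Atf6 read 5.34, 5.40, 6.34 and 6.12 in LA 8 h, 5.92, 5.71, 6.17 and 5.64 in LA 12 h, 5.96 in CLA 8 h and 5.94 in CLA 12 h. Only number 3 stood above the rest, and narrowly. Xbp1, whose mRNA IRE1 splices, read 10.58, 11.01, 10.70 and 10.33 in LA 8 h, 10.42, 11.06, 10.91 and 10.40 in LA 12 h, 10.58 in CLA 8 h and 10.51 in CLA 12 h. The values spanned 0.73 over the LA arrays, with the order number 2, number 3, then numbers 1 and 4; these probe sets do not report splicing.

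In ER-associated degradation, the arrays numbered 1 were high in most members. Herpud1, a membrane protein that scaffolds the degradation complex and is strongly induced by ER stress, read 9.43, 8.26, 7.56 and 7.66 in LA 8 h, 9.51, 8.00, 7.65 and 6.91 in LA 12 h, 9.78 in CLA 8 h and 8.81 in CLA 12 h. Edem2, a mannosidase that marks glycoproteins for disposal, read 7.38, 6.57, 6.21 and 5.68 in LA 8 h, 7.45, 6.35, 6.25 and 5.52 in LA 12 h, 7.46 in CLA 8 h and 6.95 in CLA 12 h. For both genes, all arrays numbered 1 lay above all others. Syvn1 (HRD1), the ubiquitin ligase of the complex, read 8.75, 7.64, 8.52 and 7.57 in LA 8 h, 8.82, 7.40, 8.43 and 7.52 in LA 12 h, 8.89 in CLA 8 h and 8.66 in CLA 12 h. Its arrays paired closely by number, with numbers 1 and 3 high and numbers 2 and 4 low. Os9, a lectin that delivers glycoproteins to the ligase, read 8.00, 7.63, 7.50 and 7.03 in LA 8 h, 7.96, 7.40, 7.43 and 6.86 in LA 12 h, 7.64 in CLA 8 h and 7.35 in CLA 12 h. The CLA arrays lay below the LA arrays of number 1 and close to those of numbers 2 and 3. Derl1, a derlin of the export channel, spanned 1.43 over the LA arrays, and its partner Derl2 spanned 0.78. The mannosidase gene Edem1 spanned 0.85 and Sel1l, which holds the ligase complex together, spanned 0.75. In the translocon, Sec61a1, the channel subunit, read 9.81, 9.94, 9.69 and 9.14 in LA 8 h, 9.90, 10.24, 9.47 and 10.03 in LA 12 h, 10.18 in CLA 8 h and 9.66 in CLA 12 h. No number stood apart in this probe set, but 3 of the gene's 6 probe sets differed between numbers, as given further on. Sec61b and Ssr1, the other translocon members, spanned 0.89 and 0.76 over the LA arrays.

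**Figure D1:**
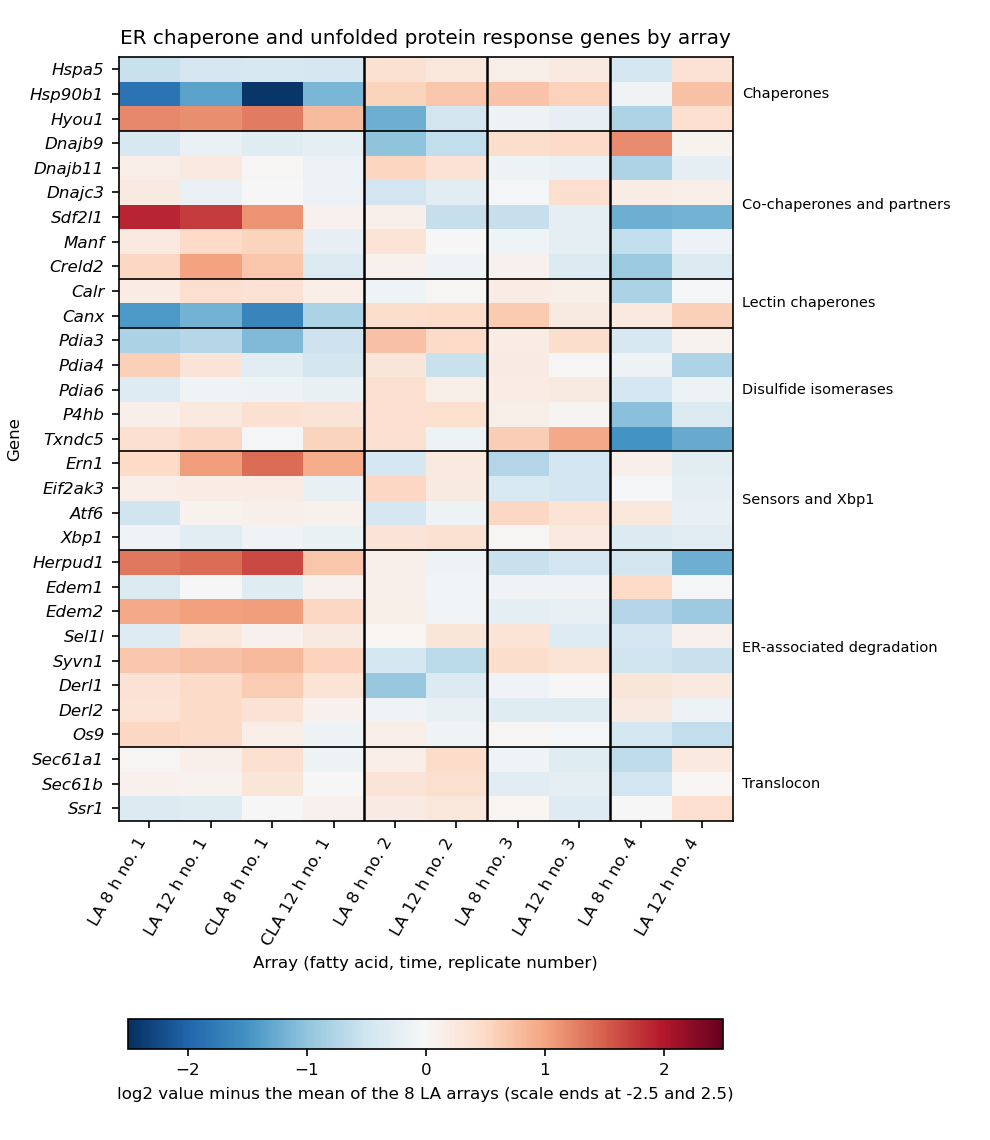
Heat map of the 31 tested genes (rows, grouped by role) in the 10 arrays (columns, grouped by replicate number); colour is the log2 value minus the mean of the 8 LA arrays. The first 4 columns, which hold both CLA arrays and the LA arrays of number 1, share low Hsp90b1, Canx and Pdia3 and high Hyou1, Herpud1, Edem2 and Syvn1.

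**Figure D2:**
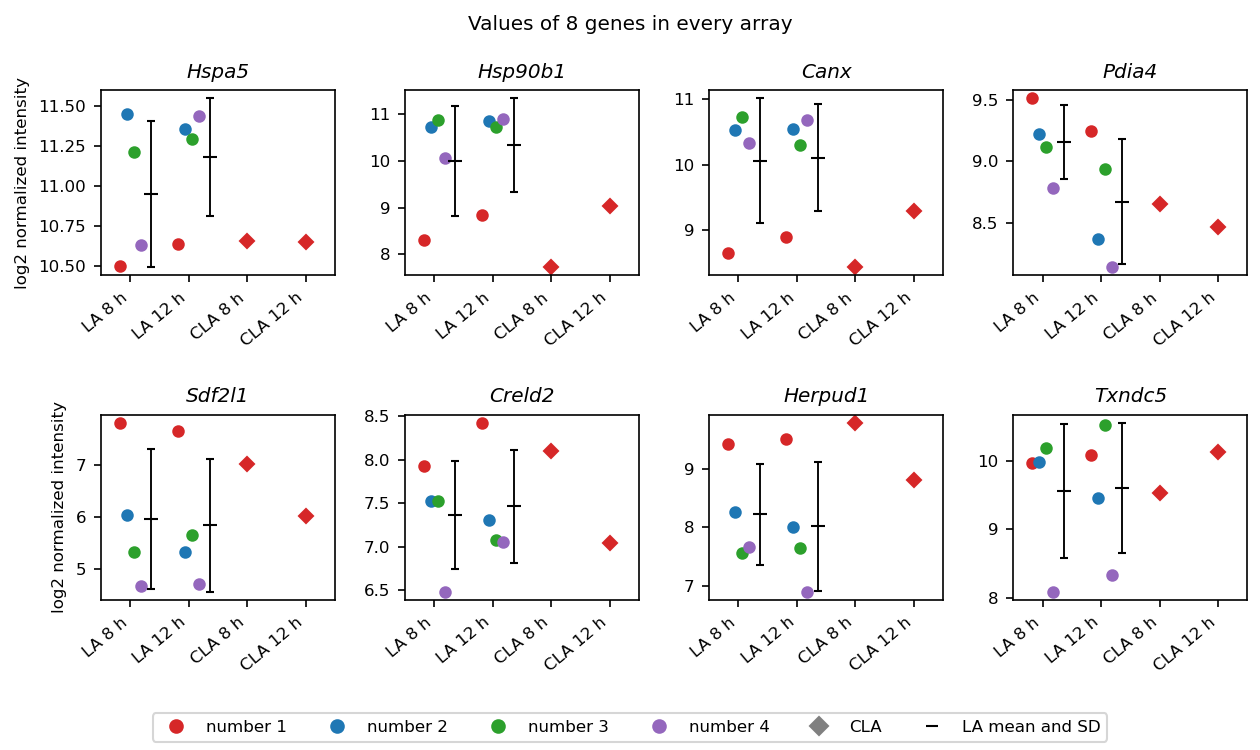
Log2 normalized intensity (y axis) of 8 genes in each array by group (x axis); circles are LA arrays, diamonds are CLA arrays, colour is the replicate number, and the black marks are the mean and SD of the 4 LA arrays of a time. In Hsp90b1 and Canx the red symbols, CLA and LA alike, lie below all others, and in Txndc5 both purple symbols lie lowest.

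The study's main question is what c9t11 CLA does to these cells relative to LA. No member was called for CLA against LA over both times. In this fit 19 members were higher and 12 lower in CLA, with a median difference of 0.14 against 0.15 over all genes tested. The count of members called was 0 of 31, against 0 of 10916 genes (0%); at an unadjusted p under 0.05 it was 3 of 31 members and 996 of 10916 genes (limma). The 3 were Hsp90b1, at -1.78 ± 0.67 (SE), Canx, at -1.22 ± 0.55, and Ern1, at 1.17 ± 0.47, each with a limma adjusted p of 0.457. By role, the degradation members were higher in 7 of 8 cases, with a median of 0.36, and Herpud1 was at 1.17 ± 0.61. The translocon members were higher in 3 of 3 cases, with a median of 0.14, and the isomerases in 2 of 5.

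Both CLA arrays carried number 1, and the same differences were measured among LA arrays alone. Hsp90b1 differed by -2.12 ± 0.21 between the LA arrays of number 1 and those of the other numbers, Canx by -1.75 ± 0.18, Ern1 by 1.02 ± 0.26 and Herpud1 by 1.80 ± 0.20; this comparison shares its LA arrays with CLA against LA. With the replicate number as a block, CLA against LA over both times was -0.19 ± 0.31 for Hsp90b1, 0.09 ± 0.27 for Canx, 0.40 ± 0.34 for Ern1 and -0.17 ± 0.28 for Herpud1. The median over members was -0.04 in that fit, with 14 higher and 17 lower. Again 0 of 31 members were called, and 3 had an unadjusted p under 0.05 (495 of 10916 genes). They were Sdf2l1, at -1.21 ± 0.34, Pdia4, at -0.82 ± 0.21, and Os9, at -0.49 ± 0.18, all lower in CLA, with a limma adjusted p of 1 each. None of these 3 was among the 3 of the fit without the block.

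**Figure D3:**
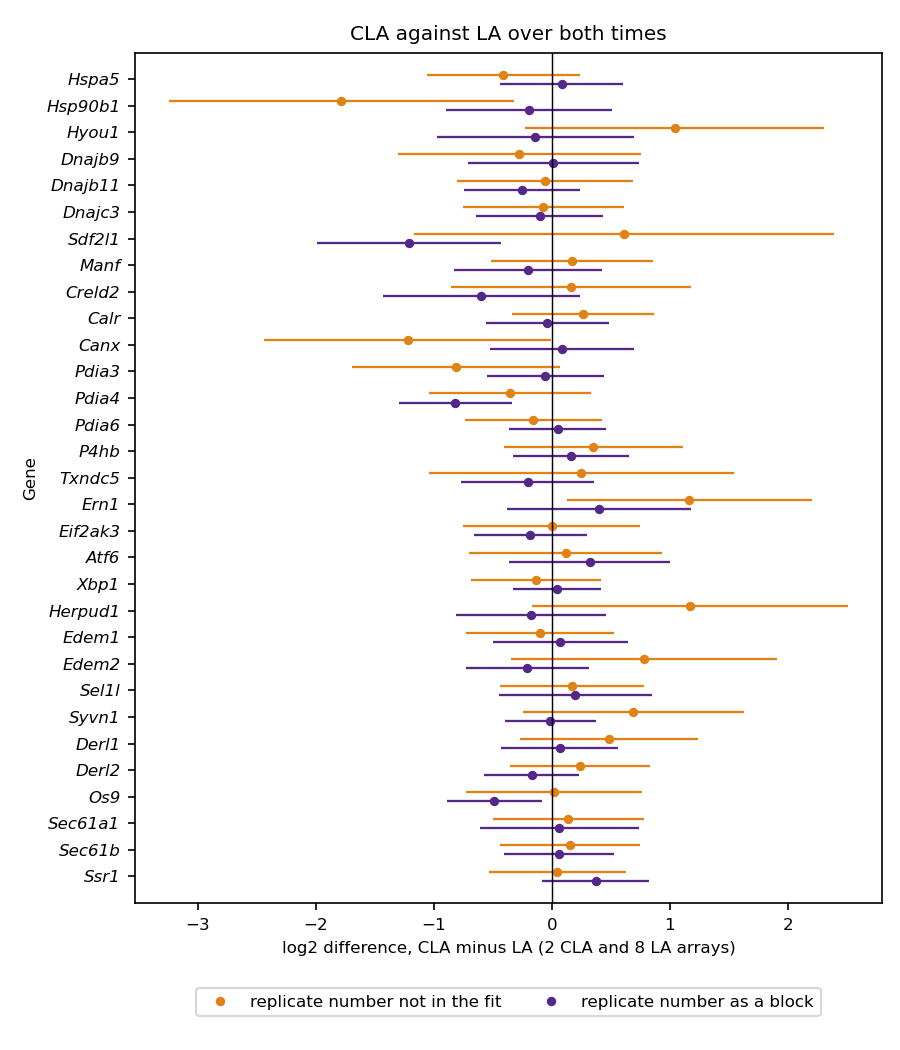
Log2 difference of CLA minus LA over both times with its 95% interval (x axis) for the 31 tested genes (y axis), with the replicate number left out of the fit (orange) and as a block (purple). Without the block Hsp90b1 sits at -1.78 and Herpud1 at 1.17; with it they sit at -0.19 and -0.17, while Sdf2l1 and Pdia4 lie below 0.

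Within number 1, 1 CLA array met 1 LA array at each time, so these differences have no replicate of their own. At 8 h 21 of 31 were higher in CLA, 9 lower and 1 equal, with a median of 0.10 and a range from -0.86 (Pdia4) to 0.91 (Ern1). At 12 h 11 were higher and 20 lower, with a median of -0.11 and a range from -1.64 (Sdf2l1) to 0.41 (Ssr1). Differences of 1 or more in size were seen in no member at 8 h (6.91% of all genes) and in Sdf2l1 and Creld2 at 12 h (6.45% of members, 4.38% of all genes). Creld2 went from 0.18 at 8 h to -1.37 at 12 h, and Sdf2l1 from -0.78 to -1.64. The degradation members were higher in 7 of 8 cases at 8 h and in 1 of 8 at 12 h. Pdia4 was lower by a like amount at both times, at -0.86 and -0.78. The fits with the block, which take their spread from the LA arrays of all 4 numbers, called 0 of 31 members at either time (0% of genes). Without quantile normalization the medians at 8 h were 0.62 for the members and 0.39 for all genes.

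Taken separately, the 8 h and 12 h comparisons called no member and no gene (0% in each). At 8 h 21 members were higher and 10 lower, with a median of 0.16 (all genes 0.16); Hsp90b1, at -2.27 ± 0.998, was the member with an unadjusted p under 0.05 (1 of 31; 487 of 10916 genes). At 12 h 15 were higher and 16 lower, with a median of -0.06 (all genes 0.09), and 0 of 31 members had an unadjusted p under 0.05 (187 of 10916 genes). The CLA difference at 12 h minus that at 8 h was below 0 in 23 of 31 members, with a median of -0.21 (all genes -0.01). It was largest in size for Creld2, at -1.15 ± 0.93 (limma adjusted p = 1), and 0 of 31 members had an unadjusted p under 0.05 (116 of 10916 genes). With the block the same difference for Creld2 was -1.15 ± 0.47 (adjusted p = 0.74). These fits take the spread of the LA arrays for that of the single CLA array of each time.

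For time in the LA cultures no gene was called, with or without the replicate number as a block. Of 31 members 21 were higher at 12 h and 10 lower, with a median of 0.06 (all genes -0.01), 0 were called (0% of genes) and 0 had an unadjusted p under 0.05 (26 of 10916 genes, limma). With the block, 1 of 31 members and 457 of 10916 genes had an unadjusted p under 0.05 (limma). The 3 chaperones were higher at 12 h, by 0.23 (Hspa5) to 0.46 (Hyou1). Pdia4 differed by -0.49 ± 0.30, and by -0.49 ± 0.15 with the block (adjusted p = 0.791). It was lower at 12 h in each of the 4 numbers, with differences of -0.27, -0.86, -0.18 and -0.65 for numbers 1 to 4.

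The differences that passed a test in these data lay between the LA replicate numbers, which the labels call biological replicates without stating what separates them. Among the 8 LA arrays, with time in the fit, 18 of 31 members differed between numbers (limma F test), against 50.1% of all genes tested, so the members' share was near the background. By role these were 2 of 3 chaperones, 4 of 6 co-chaperones and partners, 1 of 2 lectins, 4 of 5 isomerases, 2 of 4 of the sensor group (Eif2ak3 and Xbp1), 5 of 8 degradation genes and 0 of 3 translocon genes. The translocon count rests on the brightest probe sets. Tested alone, 3 of 6 Sec61a1 and 2 of 4 Ssr1 probe sets differed between numbers (limma F test). The smallest adjusted p were 0.00456 for Sdf2l1, 0.00471 for Hsp90b1, 0.00482 for both Txndc5 and Syvn1, 0.00496 for Canx and 0.00501 for Herpud1. This count depended on the arrays in the fit. Without both arrays numbered 1, in a fit chosen after seeing the data, 0 of 31 members and 0 of 10916 genes were called, and 8 members and 2661 genes had an unadjusted p under 0.05 (limma F test). Without both arrays of number 2, 3 or 4 instead, 9, 15 or 18 members were called (31.5%, 45.6% or 57.8% of genes). These fits hold fewer arrays, and what that did to the counts was not tested.

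Against the other numbers, LA number 1 had 12 members called higher (background 29.6% of genes) and 4 called lower (background 23.5%), 16 of 31 in all (53.1%). Those higher were Sdf2l1 by 2.43 ± 0.25, Herpud1 by 1.80 ± 0.20, Hyou1 by 1.57 ± 0.28, Edem2 by 1.32 ± 0.17, Ern1 by 1.02 ± 0.26, Creld2 by 1.01 ± 0.24 and Syvn1 by 0.94 ± 0.13, and further Os9, Pdia4, Txndc5, Derl1 and Derl2 by 0.55 to 0.67. Those lower were Hsp90b1 at -2.12 ± 0.21, Canx at -1.75 ± 0.18, Pdia3 at -1.01 ± 0.17 and Hspa5 at -0.66 ± 0.20. The calls of Txndc5 and Hspa5 did not hold when each probe set was tested on its own. The degradation group was called higher in 6 of 8 cases and lower in 0 of 8. Without the LA 8 h array of number 1 the 16 calls became 7, and without its LA 12 h array 6. Both LA arrays of number 1 lay above the 6 others in 11 members (29.9% of genes) and below them in 3 members (22.5%). The 8 tested genes with an ERSE were called in both directions, 2 higher (Creld2 and Syvn1) and 3 lower (Hspa5, Hsp90b1 and Canx).

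The directions for number 1 depended partly on the scaling. All genes together had a median difference of 0.18 after quantile normalization, 0.28 after centring each array on its median and -0.53 on the deposited intensities, where 3 members were called higher and 10 lower (of all genes called there, 7.88% were higher, against 55.8% after quantile normalization). On that scale 10 of 31 members changed sign, and 21 were below 0 against 11 after quantile normalization. Of these 10, Derl2, Os9 and Pdia4 had been called higher; they moved to -0.081, -0.10 and -0.016 but stayed above the median of all genes, by 0.45, 0.43 and 0.52. Relative to that median, Sdf2l1 was at 2.25 after quantile normalization and 2.09 without it, Herpud1 at 1.61 and 1.67, Hsp90b1 at -2.31 and -2.19, and Canx at -1.93 and -1.81. Hsp90b1, Canx, Sdf2l1 and Herpud1 were called under each of the 19 alternatives. Preadipocyte and fibroblast markers moved with this comparison: 3 of 5 tested were called lower in number 1, with a median of -1.42. Of 3 macrophage markers tested, Adgre1 was called higher, by 1.94 ± 0.20, while Cd68, at 0.54 ± 0.21, and Csf1r, at -0.24 ± 0.32, were not called. Endothelial Cdh5 was called higher, by 0.76 ± 0.24. The part of these cell types in the members' differences was not tested. Adipocyte markers had a median of 0.07, with 1 of 8 called. Fewer cells of a type and less RNA per cell cannot be told apart in such bulk RNA.

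LA number 4 had 10 members called lower (background 13.1% of genes) and 0 called higher (background 14.4%), while 16 of 31 members and 4576 of 10916 genes had an unadjusted p under 0.05. Txndc5 was at -1.83 ± 0.19, Sdf2l1 at -1.60 ± 0.25, Herpud1 at -1.12 ± 0.20, Edem2 at -1.10 ± 0.17 and P4hb at -0.95 ± 0.19, and Creld2, Os9, Syvn1, Dnajb11 and Pdia4 lay between -0.86 and -0.60. The isomerases were lower in 5 of 5 cases, of which 3 were called. Both arrays of number 4 lay below the 6 other LA arrays in 8 members (10.1% of genes) and above them in 0 (11.7%). The raised 3'/5' ratios of the LA 12 h array belong to this number; without that array the members' median moved from -0.26 to -0.50, and the part of RNA quality was not tested. The 10 calls became 1 without the LA 8 h array of number 2, 3 without its LA 12 h array and 4 without either LA array of number 1. Txndc5 alone was called under each of the 19 alternatives. On the deposited intensities 3 members were called higher and 2 lower, where 84.9% of all genes called were higher. After median centring 3 members were called higher and 11 lower, where 55.3% of all genes called were higher, against 52.4% after quantile normalization. Of 5 preadipocyte and fibroblast markers, 1 was called higher and 1 lower in number 4.

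Numbers 2 and 3 stood out less. Number 2 had 3 members called (8.15% of genes). Pdia3 was higher by 0.80 ± 0.17 (1 of 31, background 4.42%), and Derl1 and Syvn1 were lower, at -0.86 ± 0.16 and -0.75 ± 0.13 (2 of 31, background 3.73%). Leaving out any 1 of the 6 LA arrays numbered 1 to 3 gave 0 calls, and leaving out the LA 8 h or 12 h array of number 4 gave 10 or 13. Both arrays of number 2 lay above the 6 other LA arrays in 6 members (7.04% of genes) and below them in 3 (8.17%). In this number 4 of 5 preadipocyte and fibroblast markers were called higher, with a median of 1.42, macrophage Csf1r was called higher, by 1.99 ± 0.32, and Adgre1 lower, at -0.95 ± 0.20; their part was not tested. Number 3 had 0 of 31 called, against 0.00916% of genes, and 9 of 31 members and 2235 of 10916 genes had an unadjusted p under 0.05 (limma). Among them Txndc5 was at 1.03 ± 0.19 and Herpud1 at -0.69 ± 0.20. Its arrays lay above the 6 others in 2 members (2.94% of genes) and below them in 3 (4.2%).

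**Figure D4:**
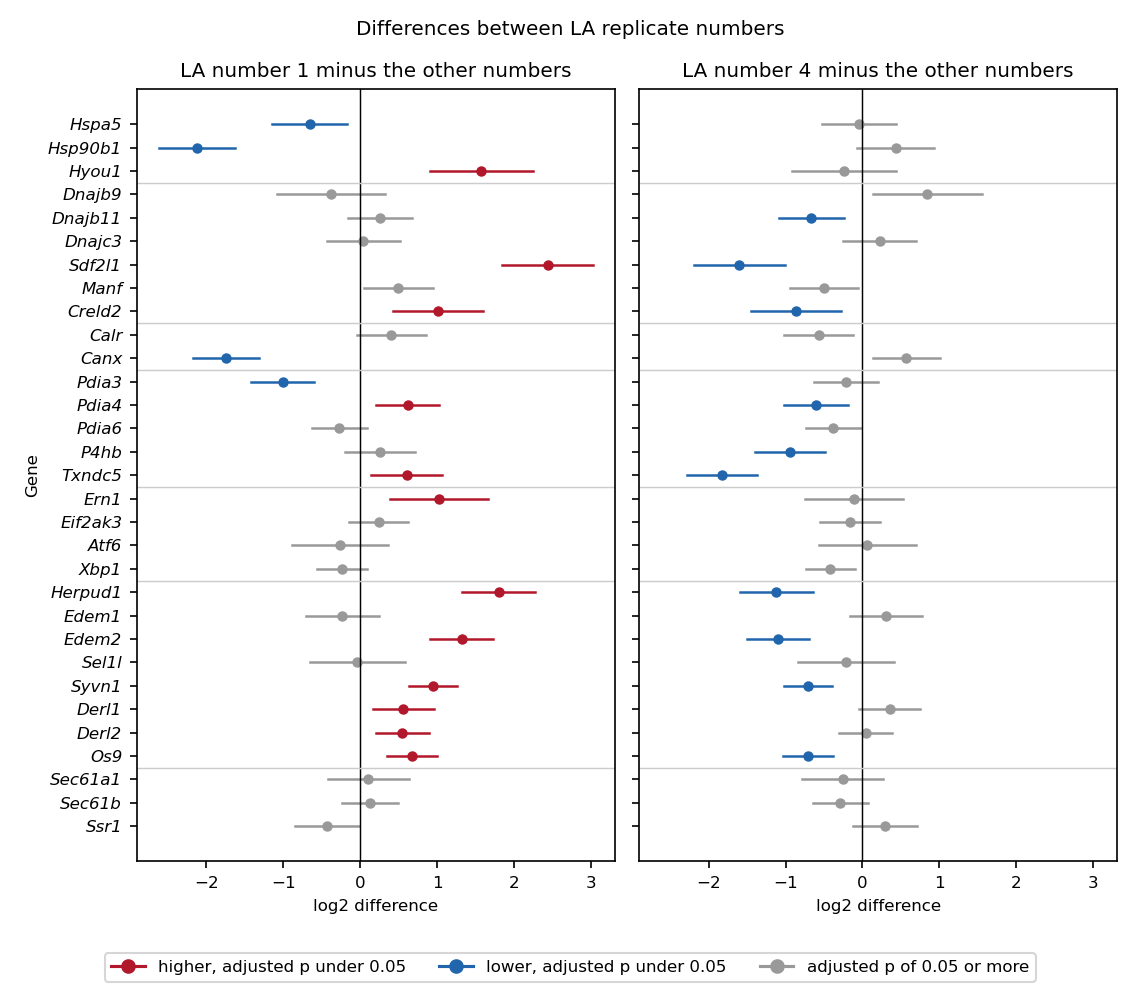
Log2 difference with its 95% interval (x axis) between the LA arrays of number 1 (left) or number 4 (right) and the LA arrays of the other numbers, for the 31 tested genes (y axis, grouped by role); red and blue mark adjusted p under 0.05. On the left Sdf2l1 and Hsp90b1 lie at 2.43 and -2.12; on the right the 10 coloured genes all lie below 0.

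Genes with several probe sets showed how far 1 probe set speaks for a gene. Each tested on its own, both Hsp90b1 probe sets were lower in number 1, at -2.12 and -1.89, as were all 3 of Canx, at -1.76 to -1.14. Both Herpud1 probe sets were higher, at 1.80 and 1.86, both of Syvn1, at 0.94 and 1.62, and all 4 of Derl1, at 0.56 to 1.56. The probe sets of Hspa5 parted, from -0.66 to 0.45, and none of the 3 was called in number 1 (limma adjusted p 0.0581 to 0.156). Those of Sec61a1 ranged from -1.62 to 1.52. In number 4 the Sec61a1 probe sets ranged from -2.62 to 0.36, with the brightest at -0.26. Those at -2.62, -2.47 and -1.66 were called lower in number 4 (limma), so the brightest probe set does not speak for this gene there. For Dnajc3 the brightest of 5 probe sets was at 0.04 and the others at down to -1.86, so its direction is uncertain. The 4 Ssr1 probe sets ranged from -1.46 to 0.12 in number 1, with the brightest at -0.43. The probe set at -1.46, which was at the floor in 2 arrays, was called lower there (limma).

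Other genes of the pathway were read from lists outside the 32 members. In the list set for the PERK to ATF4 arm, 9 of 11 genes were called higher in LA number 1 (29.6% of all genes) and 1 lower (23.5%), with a median of 1.19 (all genes 0.18). The gene called lower was Eif2a, at -0.96 ± 0.25, and its place in this arm was not checked. Atf4, the transcription factor of the arm, was higher by 1.11 ± 0.14, Ddit3 (CHOP) by 1.58 ± 0.20, the pseudokinase gene Trib3 by 3.34 ± 0.52 and the transcription factor gene Atf3 by 2.89 ± 0.24. Trib3 read 9.76 and 10.02 in the LA arrays of number 1, 9.87 and 9.90 in the CLA arrays and 4.27 to 7.50 in the 6 others. In CLA against LA over both times 10 of 11 were higher and Eif2a was lower, with a median of 0.94 and 0 called. With the block the median was 0.09. In LA number 4 this arm had 5 of 11 called lower (13.1% of all genes).

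In LA number 1, where 53.1% of all genes were called, the other lists had shares called at or below that background. Among 12 further degradation genes tested, 3 were called higher and 3 lower. Nploc4, a cofactor of the segregase VCP, was higher by 1.25 ± 0.14, and Vcp itself was at 0.00 ± 0.22. Ufd1, at -0.19 ± 0.17, was not called. Of 18 further folding and redox genes, 4 were called higher and 5 lower; the oxidase gene Ero1a was at 0.32 ± 0.56 in number 1 and at -1.99 ± 0.56 in number 4, where it was called. The 2 arrays of number 4 parted for Ero1a, at 9.93 in LA 8 h and 7.53 in LA 12 h, the array with the raised 3'/5' ratios. Of 14 further translocon and glycosylation genes, 2 were called higher and 4 lower, the latter with Sec62 at -1.83 ± 0.14 and Sec63 at -1.06 ± 0.19, both of which help proteins enter the ER. Of 13 secretory traffic genes, 3 were called higher and 2 lower. The coat gene Sec31a was higher by 0.70 ± 0.16, while Sec23b, at 0.30 ± 0.14, and Sec24d, at 0.31 ± 0.15, were not called.

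The authors' deposited table gives 1 ratio per probe set over both times. Its direction is not stated; across genes its log10 ratio correlated at 0.914 with the difference of CLA minus LA computed here, and it is read as CLA over LA on that basis. Of 31 members, 5 had a p under 0.05 in the authors' deposited table, against 26.5% of the genes tested. Ratios were below 1 for Hsp90b1 (0.335), Canx (0.446) and Pdia3 (0.513) and above 1 for Herpud1 (2.36) and Ern1 (2.24) in the authors' deposited table. After adjustment over the genes tested, Ern1 alone of the 31 members had an adjusted p under 0.05 from the authors' deposited table, against 513 genes (4.7% of those tested). How that table pooled the arrays, and whether it allowed for replicate numbers, is not given in the sources used here.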

How the data were processed

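Expression was measured on 10 Affymetrix arrays of 3T3-L1 total RNA (15 ug per labelling, per the labels). The deposited value table holds 1 intensity per probe set and array on a linear scale, of which 22.5% are at or below 0; its software and scaling are not given in the sources used here. A table deposited by the authors holds a ratio, a fold change, a log10 ratio with its error and a p-value per probe set; how it was made is not stated. Of 45101 probe sets, 34945 with 1 gene symbol were kept.

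Intensities were quantile normalized, raised to a floor (14.3, the table's 2nd percentile without its sign) and put on the log2 scale. Each of 18193 genes was read from its brightest probe set. Dropping the lowest 40% by mean left 10916 to test, with 11.1% of values at the floor. Fits used limma 3.58.1 in R 4.3.3 (two-sided moderated tests, eBayes with a trend, and Benjamini-Hochberg adjustment), tested on simulated data. The fit over both times had treatment and time as additive terms. The comparisons within times used group means, and those between numbers used LA arrays with time as a term. Same-numbered LA arrays of 8 h and 12 h correlated, after removal of group means, at 0.855, 0.779, 0.503 and 0.553 for numbers 1 to 4, so the numbers pair the samples and served as a block. Nothing states that replicates were separate cultures beyond the label, and p-values measure only the spread between these arrays, whose small number limits precision.

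The members, lists, motifs and naming rule were chosen with earlier results of these data known. By that rule all members were accounted for, and 15 set genes and the 5 further members with the smallest F test p were shown in every array. Examples of each further list came mostly from its first genes, not all of which are given. Figures were drawn with matplotlib 3.10.9.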

Additional observations from a re-analysis of the deposited data

Results flagged for a closer look

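Outlying arrays were looked for among the 4 LA arrays of each time in the 31 tested members, 62 tests in all, of which chance flags about 1 in 20. There were 2. Txndc5 in LA 8 h number 4, at 8.09 against a nearest value of 9.97, had a gap of 0.897 of the group's range. Hsp90b1 in LA 12 h number 1, at 8.84 against 10.74, had a gap of 0.917 of the range. In both genes the array of the same number at the other time was also the lowest of its group.

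Creld2 was higher in the CLA array than in each LA array at 8 h, by a mean of 0.74, and lower than in each LA array at 12 h, with a mean difference of -0.42. At 12 h the CLA array, at 7.05, was nearly level with LA number 4, at 7.06, and number 3, at 7.08, and number 1 was at 8.42. The difference between the times was -1.15; this side-by-side pattern rests on 1 CLA array per time, and the fitted test of the same difference gave an adjusted p of 1 (limma), or 0.74 with the block.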

How the results depend on the processing

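For CLA against LA (over both times, at 8 h, at 12 h and between the times) and for LA over time, the count of members called was 0 in the main fit and under every alternative but the authors' deposited table, which gave 1; the replicate block changed no call. Without quantile normalization the members' median was -0.11 over both times, -0.065 at 8 h, -0.37 at 12 h, and 0.62 within number 1 at 8 h; for LA number 1, 2 and 4 it was -0.45, 0.40 and 0.10. Between numbers, 18 calls became 11 without quantile normalization, 8 without the filter and 0 to 25 with arrays left out; dropping, after seeing the data, both arrays of a number gave 0 (number 1), 9 (number 2), 15 (number 3) and 18 (number 4). Number 1 (16 calls) gave 9 without the filter and 6 to 21 with an array left out, lowest without either of its own arrays. Number 2 (3 calls) gave 6 with a lower floor or the lowest 60% left out, 1 with double the floor or no trend, 0 without the filter or with each probe set tested alone, and 0 to 13 with an array left out. Number 3 gave 0 to 1. Number 4 (10 calls) gave 5 without quantile normalization, 4 without the filter and 1 to 11 with an array left out, with a median of -0.50 to -0.23. The calls for all genes moved too, from 20.2% to 60.9% for number 1 and from 0.742% to 38.9% for number 4. In number 1, 10 of 31 members changed sign without quantile normalization; those called on either scale were Derl2 (-0.081), Os9 (-0.10), Pdia4 (-0.016) and Dnajc3 (-0.85), and the sign also changed for Dnajc3 (-0.81) with the mean over probe sets. The causes were not tested. With 1 CLA array per time, leaving out a CLA array gave no value for its time.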
